A study of Homo sapiens with 6 samples.

Results

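The genes described here fold, check and export proteins in the endoplasmic reticulum (ER). They are 36 listed genes for ER chaperones, the translocon that carries new chains into the ER, the sensors of the unfolded protein response, the machinery that degrades misfolded chains, and the coat of ER export vesicles. Members were taken by name, as every probe set that the platform annotation assigns to a listed gene. That gave 59 of the 22277 probe sets on the array, for 32 of the 36 genes. KDELR2, SYVN1, DNAJB11 and SEC61G matched no probe set with that symbol alone and are not analysed here. A further 2 probe sets that carry the HSP90B1 symbol together with another gene's were not used. Of the 59, 57 had a mean log2 signal of at least 5.44, the 40th percentile of all probe sets, and were tested among 13308, so each of the 32 genes kept at least 1. The 2 dimmer ones belong to SEC24D.

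All cells were NCI-H929, an established human multiple myeloma line, harvested 24 h after small interfering RNA (siRNA) was delivered by electroporation. There were 3 groups of 2 arrays, siRRM1 (siRNA against RRM1), siRRM2 (siRNA against RRM2) and scramble (control siRNA). RRM1 and RRM2 are subunits of ribonucleotide reductase, the enzyme that supplies the building blocks of DNA. Separate cultures for the replicate arrays are not stated, so each p-value covers the spread between these arrays, which may be technical. In RNA from whole cultures, fewer cells with a transcript and less of it per cell cannot be told apart.

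Plasma cells, and the myelomas derived from them, secrete large amounts of immunoglobulin and carry an ER rich in folding enzymes. New chains enter through the SEC61 channel, are folded with the help of HSPA5 (BiP), the calnexin cycle and protein disulphide isomerases, and leave in vesicles coated by COPII. When unfolded chains build up, the sensors ERN1 (IRE1), ATF6 and EIF2AK3 (PERK) start the unfolded protein response, which raises chaperones and degradation factors and slows the making of new protein.

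RRM1 (201477_s_at) had log2 signals of 8.93 and 7.99 in siRRM1 cells, against 11.06 and 11.11 in scramble cells (difference -2.63, adjusted p = 0.00289), and RRM2 (201890_at) had 10.54 and 11.44 in siRRM2 cells, against 12.78 and 12.79 in scramble cells (-1.79, adjusted p = 0.0361). All 11 plasma cell and myeloma markers had a probe set above the level tested, with a summed linear signal of 28336 to 29579 in siRRM1, 33066 to 35540 in siRRM2 and 33829 to 34991 in scramble. One of them, the receptor gene FGFR3, fell in siRRM1 (-0.54, adjusted p = 0.0248). Among other cell types' markers, 3 of 7 myeloid, 4 of 5 cytotoxic, 1 of 6 T cell, 2 of 6 stromal and 0 of 5 epithelial genes rose in siRRM1, and 0, 2, 0, 1 and 0 rose in siRRM2. The cytotoxic list summed to 1169 to 2518 in siRRM1, 631 to 1121 in siRRM2 and 218 to 241 in scramble. The myeloid list summed to 652 to 1499 in siRRM1, 329 to 693 in siRRM2 and 194 to 205 in scramble. The T cell list summed to 2375 to 2663, 1763 to 2035 and 1243 to 1281 in the same order, the stromal list to 752 to 856, 560 to 594 and 389 to 398, and the epithelial list to 415 to 437, 418 to 437 and 438 to 449. The brightest genes weigh most in such sums. In siRRM1 these were TRBC1 in the T cell, GZMB in the cytotoxic and ACTA2 in the stromal list. Of the T cell genes tested, TRBC1 rose in siRRM1 and CD3E did not (0.13, limma adjusted p = 0.565). CD14, ITGAM, LYZ, KLRD1, CD2, CD3D, CD3G, CD8A, COL1A2, COL3A1, PDGFRB, CDH1, EPCAM and KRT19 were below the level tested. FCGR3A, of the myeloid list, matched no probe set with that symbol alone. The part of these transcripts in the values below was not tested.

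In siRRM1 cells most ER genes lay slightly below scramble, and 4 of the 32 genes had a probe set that fell. These were SEC24D, a cargo-binding subunit of the COPII coat, SEL1L, the scaffold of an ER degradation complex, SEC63, a partner of the translocon, and PDIA3, a disulphide isomerase of the calnexin cycle. They accounted for 5 of 57 member probe sets (8.77%), against 5.75% of all probe sets called lower. The brightest probe sets of SEL1L and SEC63 were not called (limma adjusted p = 0.506 and 0.0883). With 1 probe set per gene, SEC24D and PDIA3 kept the call, and SEL1L and SEC63 did not. Under limma 0 of 57 rose, against 6.42% of all probe sets called higher. At an unadjusted p under 0.05, 2 of the 57 lay above scramble and 18 below, against 1806 and 2175 of all 13308. Over all probe sets, 765 of 1619 calls were lower, and 1073 of 1820 were when each array was centred on its median. The median log2 difference was -0.17 over the 57 and -0.02 over all probe sets tested. Both siRRM1 arrays lay below both scramble arrays in 33 of the 57 (57.9%, against 31.4% of all) and above both in 4 (7.02%, against 26.0%). By gene, 24 of the 32 had every probe set below 0, 4 had every one above and 4 were mixed.

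In siRRM2 cells the median lay nearer 0. Under limma 0 of 57 changed, against 1.32% of all probe sets. At an unadjusted p under 0.05, 2 of the 57 lay above scramble and 6 below, against 1346 and 1155 of all 13308. The median log2 difference was -0.05, beside -0.01 over all probe sets tested. Both siRRM2 arrays lay below both scramble arrays in 21 of the 57 (36.8%, against 29.0% of all) and above both in 8 (14%, against 25.8%). Both knockdowns were set against the same 2 scramble arrays, so their differences from scramble share that error. For both knockdowns lying on the same side of scramble at once, no count over all probe sets was made.

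**Figure D1:**
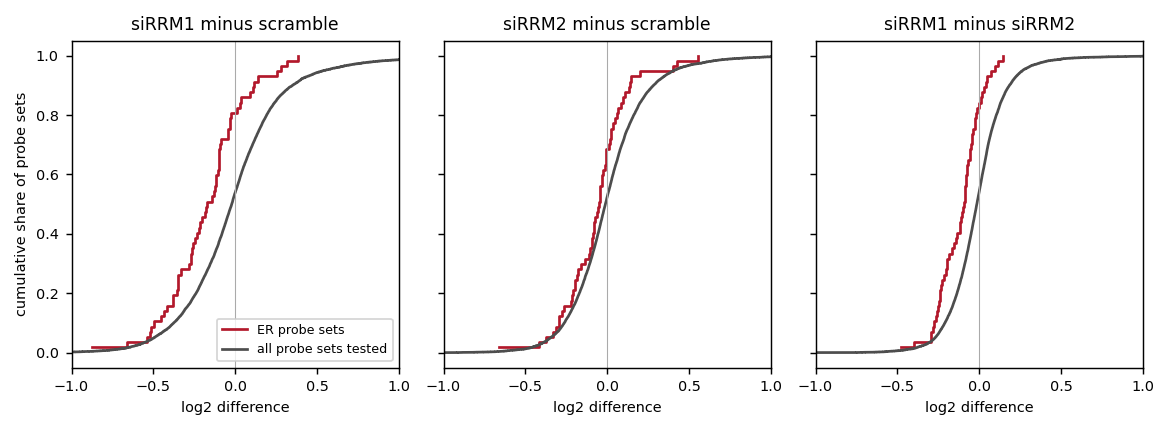
Cumulative share of probe sets (vertical axis) by log2 difference (horizontal axis, drawn from -1 to 1) for the 57 ER probe sets and all 13308 tested, in 3 comparisons. In siRRM1 minus scramble the ER curve lies to the left, with medians of -0.17 and -0.02.

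The replicate siRRM1 arrays contributed unequally. Relative to the scramble mean, the median member probe set stood at -0.09 on siRRM1 replicate 1 and -0.26 on siRRM1 replicate 2, and at -0.05 and -0.08 on the siRRM2 arrays. SiRRM1 replicate 2 was the lowest of the 6 arrays in 37 of the 57 probe sets, and it lay below siRRM1 replicate 1 in 46 of them (80.7%, against 55.1% of all probe sets). For being the lowest array, no count over all probe sets was made. Between the 3′ and 5′ control probe sets of ACTB, the log2 gap was 0.03 and 0.33 in siRRM1, 0.05 and 0.05 in siRRM2 and 0.34 and 0.15 in scramble, so siRRM1 replicate 2 was next to scramble replicate 1. For GAPDH the gap was -0.11 and -0.01 in siRRM1, -0.10 and -0.10 in siRRM2 and -0.02 and -0.09 in scramble. SiRRM1 replicate 2 also had the lower RRM1 signal of the pair. The part of RNA quality and of knockdown depth in the member values was not tested. Without siRRM1 replicate 2 the members' median was -0.09 and 1 member probe set was called, that of SEC24D. Without siRRM1 replicate 1 the median was -0.26 and 10 were called, and without scramble replicate 1 none were (median -0.18).

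**Figure D2:**
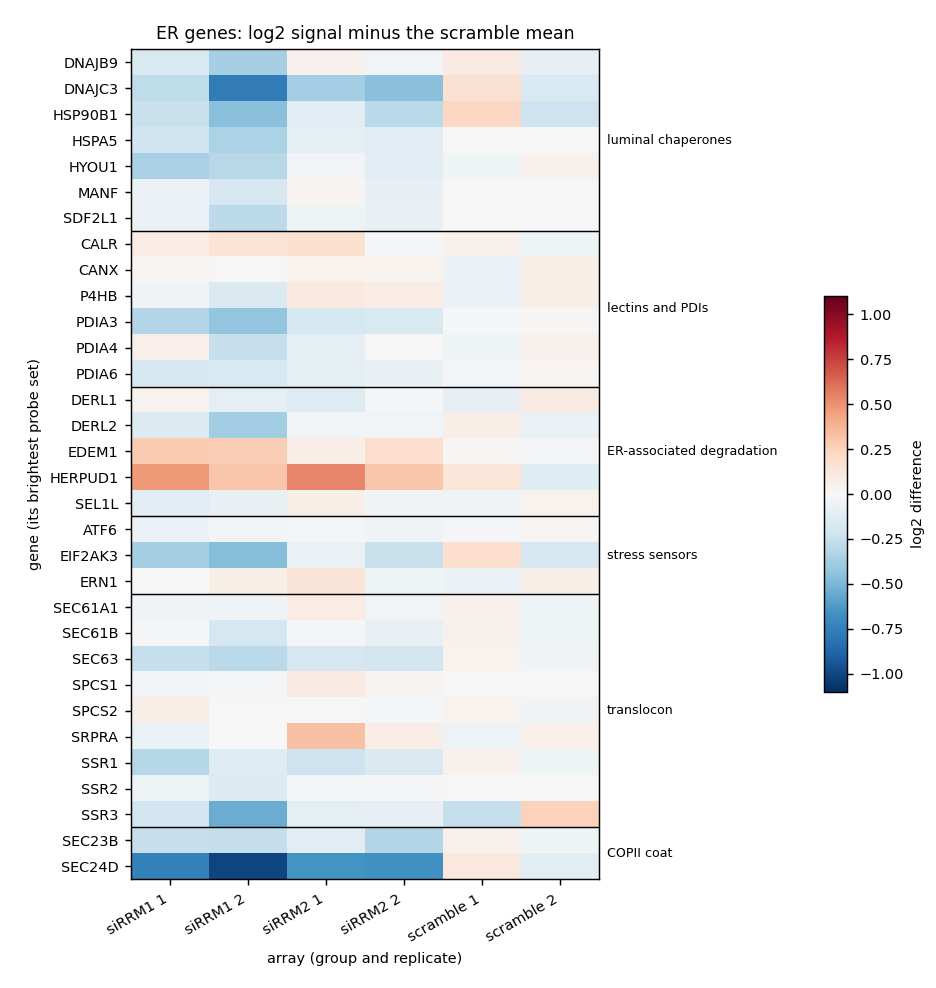
Log2 signal minus the scramble mean (colour, from -1.1 to 1.1) for the brightest probe set of each of the 32 genes (vertical axis, grouped by role) on each of the 6 arrays (horizontal axis). SEC24D is the lowest gene on all 4 knockdown arrays, at -0.74 and -1.01 in siRRM1 and -0.66 and -0.67 in siRRM2, and 24 and 26 of 32 genes are below 0 on the siRRM1 arrays, 19 and 25 on the siRRM2 arrays and 15 and 17 on the scramble arrays.

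Among the luminal chaperones none was called in the reported test, although HSPA5 and HYOU1 stood apart from scramble in siRRM1. Some processing alternatives called HYOU1 lower in siRRM1. These were 1 probe set per gene, the 60th percentile cutoff, centring each array on its median, a variance trend and the replicate block. HSPA5 was called lower in siRRM1 with the variance trend. HSPA5, the main HSP70 chaperone of the ER and the brake on the stress sensors, had log2 signals of 12.38 and 12.25 in siRRM1, 12.48 and 12.48 in siRRM2 and 12.60 and 12.58 in scramble. Its 3 groups did not overlap, with siRRM1 lowest and scramble highest. The difference from scramble was -0.28 in siRRM1 (SE 0.09, adjusted p = 0.0912) and -0.11 in siRRM2 (SE 0.09, adjusted p = 0.560). HYOU1, a nucleotide exchange factor for HSPA5, had 10.18 and 10.23 in siRRM1, 10.51 and 10.41 in siRRM2 and 10.48 and 10.59 in scramble. Its siRRM1 arrays lay below the 4 other arrays, with a difference from scramble of -0.33 (SE 0.09, adjusted p = 0.0634), and its siRRM2 arrays overlapped scramble (-0.08, adjusted p = 0.716).

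Several of these genes carry textbook promoter elements of the unfolded protein response, and 5 promoters are shown because their genes took different positions relative to scramble. The windows are RefSeq promoters on GRCh38.p14, 250 bases before and 50 after the gene start, and 27 of the 32 genes had one. They lie at chr9:125241294-125241593 (minus strand) for HSPA5, chr11:119057156-119057455 (minus strand) for HYOU1, chr16:56931892-56932191 (plus strand) for HERPUD1, chr14:81533804-81534103 (minus strand) for SEL1L and chr6:107958159-107958458 (minus strand) for SEC63. Each is printed 5′ to 3′ along its gene. Capitals mark matches, on either strand, to the ER stress response element ERSE (CCAAT, then 9 bases of any kind, then CCACG), to ERSE-II (ATTGG, then 1 base of any kind, then CCACG), to TGACGTGG, a core of the unfolded protein response element, or to CCACG alone.
HSPA5: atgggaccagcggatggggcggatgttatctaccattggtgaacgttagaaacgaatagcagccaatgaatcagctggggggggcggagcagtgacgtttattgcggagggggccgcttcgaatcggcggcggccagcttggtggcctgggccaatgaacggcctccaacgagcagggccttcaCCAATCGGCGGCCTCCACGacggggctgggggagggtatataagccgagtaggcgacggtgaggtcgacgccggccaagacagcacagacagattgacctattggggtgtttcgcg
HYOU1: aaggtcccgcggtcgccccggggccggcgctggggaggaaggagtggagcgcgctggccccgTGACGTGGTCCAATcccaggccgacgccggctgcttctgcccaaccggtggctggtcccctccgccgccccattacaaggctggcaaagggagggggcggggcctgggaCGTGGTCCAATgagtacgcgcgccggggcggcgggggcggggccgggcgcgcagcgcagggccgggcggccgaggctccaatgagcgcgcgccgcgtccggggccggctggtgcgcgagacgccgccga
HERPUD1: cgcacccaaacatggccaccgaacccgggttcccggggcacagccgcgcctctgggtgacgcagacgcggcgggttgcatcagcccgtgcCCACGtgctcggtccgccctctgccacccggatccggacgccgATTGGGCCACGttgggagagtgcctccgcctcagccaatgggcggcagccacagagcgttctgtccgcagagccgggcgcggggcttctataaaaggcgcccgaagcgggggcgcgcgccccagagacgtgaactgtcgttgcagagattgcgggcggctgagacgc
SEL1L: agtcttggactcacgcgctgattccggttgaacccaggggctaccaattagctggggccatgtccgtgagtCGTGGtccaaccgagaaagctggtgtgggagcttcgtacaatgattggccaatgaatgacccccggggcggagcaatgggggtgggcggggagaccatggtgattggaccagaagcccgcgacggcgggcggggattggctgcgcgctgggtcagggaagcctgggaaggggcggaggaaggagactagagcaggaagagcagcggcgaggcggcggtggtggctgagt
SEC63: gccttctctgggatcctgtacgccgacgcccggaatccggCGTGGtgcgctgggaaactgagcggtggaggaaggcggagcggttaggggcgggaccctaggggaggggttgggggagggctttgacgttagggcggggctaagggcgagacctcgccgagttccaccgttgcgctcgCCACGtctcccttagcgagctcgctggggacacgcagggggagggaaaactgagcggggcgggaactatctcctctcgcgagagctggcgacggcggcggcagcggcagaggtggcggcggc

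ERSE occurred in 4 of the 27 windows (14.8%), those of HSPA5, HSP90B1, CALR and CANX, against 0.0806% of 27305 promoters of the same length. In the HSPA5 window it begins 66 bases before the gene start. ERSE-II occurred in 3 windows (11.1%, against 0.0549% of all), those of HYOU1, HERPUD1 and SDF2L1. HYOU1 has 2 ERSE-II matches, and the upstream one overlaps the TGACGTGG match, found in 1 member window (3.7%, against 0.795% of all). CCACG, inside a longer element or not, was in 19 windows (70.4%, against 37.9%), and every ERSE and ERSE-II match contains it. SEL1L and SEC63 held CCACG and none of the longer elements. Of the 12 probe sets of the 7 genes with ERSE or ERSE-II, 4 lay wholly below scramble in siRRM1 and 3 wholly above, where 31.4% and 26.0% of all probe sets did, with a median log2 difference of 0.05 and a range of -0.35 to 0.38. CALR and CANX supplied 6 of the 12, while HSPA5, HYOU1 and SDF2L1 lay wholly below scramble. Of the 38 probe sets of the 20 genes whose window held neither, 25 lay wholly below and 1 wholly above, with a median of -0.21. A match describes the letters in the window and shows no binding.

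The remaining chaperones, DNAJC3, DNAJB9, SDF2L1, MANF and HSP90B1, did not pass the reported test in either knockdown. With the replicate block, DNAJC3, DNAJB9 (202843_at) and HSP90B1 (216449_x_at) were called lower in siRRM1. DNAJC3, a J-domain protein also known as an inhibitor of EIF2AK3, had 8.26 and 7.76 in siRRM1, 8.16 and 8.07 in siRRM2 and 8.70 and 8.37 in scramble. All 4 knockdown arrays were below both scramble arrays, with mean log2 differences of -0.52 in siRRM1 (adjusted p = 0.102) and -0.42 in siRRM2 (adjusted p = 0.269). DNAJB9, a J-domain protein that restrains ERN1, gave -0.27 and -0.54 in siRRM1 by its 2 probe sets (adjusted p = 0.161 and 0.0956) and 0.01 and -0.14 in siRRM2. SDF2L1, a partner of ER J-domain proteins, differed by -0.17 in siRRM1 and -0.06 in siRRM2, and MANF, a secreted factor that binds HSPA5, by -0.13 and -0.03. HSP90B1, the ER form of HSP90, gave opposite signs in siRRM1 (-0.35 by 216449_x_at and 0.26 by 216450_x_at, adjusted p = 0.200 and 0.375), and the names of both probe sets mark possible cross-hybridization. Of the 9 chaperone probe sets, 8 had both siRRM1 arrays below both scramble arrays and 0 above both (31.4% and 26.0% of all probe sets did), and the median log2 difference was -0.28. For siRRM2 these numbers were 3 and 0 (29.0% and 25.8% of all), with a median of -0.08.

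Among the lectins and disulphide isomerases, PDIA3 fell in siRRM1. It had log2 signals of 11.38 and 11.27 in siRRM1, 11.51 and 11.54 in siRRM2 and 11.69 and 11.72 in scramble. The groups did not overlap, and siRRM2 lay between siRRM1 and scramble. PDIA3 dropped by 0.38 on the log2 scale in siRRM1, to 0.769 of scramble (SE 0.09, adjusted p = 0.0382), and differed by -0.18 in siRRM2 (adjusted p = 0.337). Leaving out 1 array at a time gave adjusted p of 0.0414 to 0.148, and the call was lost without siRRM1 replicate 2, siRRM2 replicate 1, siRRM2 replicate 2, scramble replicate 1 or scramble replicate 2. Over the other processing alternatives it had adjusted p of 0.00846 to 0.0821, and the call was lost with no filter on dim probe sets, with array weights or with the 4 arrays of siRRM1 and scramble.

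The lectins that work with PDIA3 took other positions. CANX, the membrane-bound lectin calnexin, had 12.69 and 12.67 in siRRM1, 12.70 and 12.70 in siRRM2 and 12.59 and 12.73 in scramble by its brightest probe set, and those groups overlapped between knockdowns and scramble. Its 3 probe sets differed from scramble by -0.08 to 0.14 in siRRM1 and -0.08 to 0.07 in siRRM2. CALR, the soluble lectin calreticulin, had 3 differences above 0 in siRRM1, of 0.09 to 0.31 (adjusted p = 0.278 to 0.546). In siRRM2 they ranged from -0.01 to 0.56, and the highest came from 200935_at with 8.02 and 7.78 in siRRM2 cells, against 7.23 and 7.47 in scramble cells (adjusted p = 0.163).

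The other isomerases stayed close to scramble. The 4 probe sets of PDIA6 differed by -0.20 to -0.09 in siRRM1 and -0.11 to -0.04 in siRRM2, and the 2 of PDIA4 by -0.14 to -0.10 and -0.06 to -0.05. P4HB, which also serves as a subunit of collagen prolyl hydroxylase, differed by -0.12 to -0.10 in siRRM1 and 0.09 to 0.15 in siRRM2. The adjusted p of these 8 probe sets was 0.209 to 0.670 in siRRM1 and 0.606 to 0.879 in siRRM2. Of the 15 lectin and isomerase probe sets, 4 had both siRRM1 arrays below both scramble arrays and 2 above both (31.4% and 26.0% of all probe sets did), and the median log2 difference was -0.10. For siRRM2 these numbers were 4 and 3 (29.0% and 25.8% of all), with a median of -0.04.

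In the degradation machinery SEL1L, which holds the HRD1 ubiquitin ligase complex together, fell by 1 of its 4 probe sets. That probe set, 202063_s_at, had 6.00 and 5.84 in siRRM1, 6.42 and 6.38 in siRRM2 and 6.68 and 6.49 in scramble. The 3 groups did not overlap. It dropped by 0.66 on the log2 scale in siRRM1, to 0.631 of scramble (SE 0.11, adjusted p = 0.0125), and differed by -0.19 in siRRM2 (adjusted p = 0.399). The brightest SEL1L probe set, 202061_s_at, had 11.32 and 11.35 in siRRM1, 11.50 and 11.40 in siRRM2 and 11.40 and 11.47 in scramble, a difference of -0.10 in siRRM1 (adjusted p = 0.506). The remaining pair gave -0.19 and -0.24 (adjusted p = 0.539 and 0.260), so the SEL1L call rests on 1 probe set. Leaving out 1 array at a time gave adjusted p of 0.0190 to 0.0726 for it, and the call was lost without siRRM1 replicate 2 or scramble replicate 1.

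HERPUD1 and EDEM1 lay on the other side of scramble without passing in the reported test. In siRRM1, HERPUD1 was called higher with a variance trend or the replicate block, and EDEM1 with quantile normalization. HERPUD1, an ER membrane protein of the same complex that ER stress strongly induces, had 12.38 and 12.22 in siRRM1, 12.45 and 12.22 in siRRM2 and 12.05 and 11.78 in scramble. All 4 knockdown arrays lay above both scramble arrays, by a mean of 0.38 in siRRM1 (SE 0.13, adjusted p = 0.104) and 0.42 in siRRM2 (SE 0.13, adjusted p = 0.159). EDEM1, which hands misfolded glycoproteins to degradation, had 10.22 and 10.20 in siRRM1, 10.00 and 10.12 in siRRM2 and 9.94 and 9.92 in scramble. Its groups did not overlap, with siRRM1 highest, and the difference from scramble was 0.28 in siRRM1 (SE 0.09, adjusted p = 0.0902) and 0.13 in siRRM2 (adjusted p = 0.476).

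The Derlins, membrane proteins that help misfolded chains leave the ER, had differences below 0. DERL2 had 10.21 and 9.97 in siRRM1, 10.33 and 10.33 in siRRM2 and 10.44 and 10.28 in scramble (-0.27 in siRRM1, adjusted p = 0.162), and its siRRM2 arrays overlapped scramble. DERL1 gave -0.50 by 218172_s_at (adjusted p = 0.0642) and -0.03 by its brighter probe set (adjusted p = 0.869) in siRRM1, and -0.30 and -0.08 in siRRM2. With the 60th percentile cutoff, centring each array on its median, a variance trend or the replicate block, 218172_s_at was called lower in siRRM1. Of the 9 degradation probe sets, 5 had both siRRM1 arrays below both scramble arrays and 2 above both (31.4% and 26.0% of all probe sets did), and the median log2 difference was -0.19. For siRRM2 these numbers were 2 and 2 (29.0% and 25.8% of all), with a median of -0.01.

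Of the 3 stress sensors, EIF2AK3, the kinase that slows translation, had 11.12 and 11.01 in siRRM1, 11.41 and 11.23 in siRRM2 and 11.66 and 11.29 in scramble. Its siRRM1 arrays lay below the 4 other arrays (-0.42 from scramble, SE 0.14, adjusted p = 0.0966), and its siRRM2 arrays overlapped scramble (-0.16). EIF2AK3 was called lower in siRRM1 with a variance trend or the replicate block. ATF6, which is cut in the Golgi to release a transcription factor, differed by -0.05 and -0.22 in siRRM1 by its 2 probe sets (adjusted p = 0.770 and 0.173) and by -0.03 and 0.03 in siRRM2. ERN1, the kinase and nuclease that splices XBP1 mRNA, had 5.47 and 5.53 in siRRM1, 5.61 and 5.42 in siRRM2 and 5.40 and 5.53 in scramble, close to the level needed for testing. Its groups overlapped, with differences of 0.03 in siRRM1 and 0.05 in siRRM2. XBP1 (200670_at), outside the 36 genes, differed by -0.18 in siRRM1 (adjusted p = 0.279) and -0.04 in siRRM2 (adjusted p = 0.889). Of the 4 sensor probe sets, 3 had both siRRM1 arrays below both scramble arrays and 0 above both (31.4% and 26.0% of all probe sets did), and the median log2 difference was -0.13. For siRRM2 these numbers were 0 and 0 (29.0% and 25.8% of all), with a median of 0.00.

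In the translocon SEC63, a J-domain membrane protein that brings HSPA5 to the channel, fell in siRRM1 by 2 of its 3 probe sets. Probe set 201915_at had 7.34 and 7.21 in siRRM1, 7.41 and 7.51 in siRRM2 and 7.89 and 7.70 in scramble, and dropped by 0.51 on the log2 scale in siRRM1, to 0.700 of scramble (SE 0.11, adjusted p = 0.0263). Probe set 201914_s_at had 10.22 and 10.01 in siRRM1, 10.21 and 10.34 in siRRM2 and 10.61 and 10.48 in scramble, and dropped by 0.43 in siRRM1, to 0.741 of scramble (SE 0.11, adjusted p = 0.0475). All 4 knockdown arrays lay below both scramble arrays in each SEC63 probe set. The third, 201916_s_at, gave -0.27 in siRRM1 (adjusted p = 0.0883), and in siRRM2 the 3 gave -0.33 to -0.20 (adjusted p = 0.171 to 0.292). Leaving out 1 array at a time gave adjusted p of 0.0353 to 0.136 for 201915_at, whose call was lost without siRRM1 replicate 2, siRRM2 replicate 1, siRRM2 replicate 2 or scramble replicate 1. For 201914_s_at it gave 0.0375 to 0.212, and the call was lost without siRRM1 replicate 2, siRRM2 replicate 1, siRRM2 replicate 2, scramble replicate 1 or scramble replicate 2. Over the other processing alternatives 201915_at had adjusted p of 0.0132 to 0.0544 and was lost with the 4 arrays of siRRM1 and scramble, and 201914_s_at had adjusted p of 0.0235 to 0.0830 and was lost with no filter on dim probe sets, with quantile normalization, with array weights or with the 4 arrays of siRRM1 and scramble.

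SSR1, the alpha subunit of the translocon-associated protein complex, had all 4 probe sets wholly below scramble in both knockdowns without a call in the reported test. Of all probe sets, 31.4% lay wholly below scramble in siRRM1 and 29.0% in siRRM2, and no count in both at once was made. The 4 SSR1 probe sets differed by -0.45 to -0.22 in siRRM1 (adjusted p = 0.0553 to 0.190) and by -0.37 to -0.20 in siRRM2 (adjusted p = 0.171 to 0.489). SSR1 200890_s_at and 201894_s_at were called lower in siRRM1 with the 60th percentile cutoff, centring each array on its median, a variance trend or the replicate block. Its probe set 201894_s_at, with the lowest adjusted p of the 4 in siRRM1, had 11.28 and 11.15 in siRRM1, 11.22 and 11.32 in siRRM2 and 11.55 and 11.59 in scramble. SSR2, the beta subunit, differed by -0.11 in siRRM1 and -0.01 in siRRM2, and SSR3, the gamma subunit, by -0.38 and -0.10 with arrays that overlapped scramble.

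The channel itself lay near scramble. SEC61A1, the pore-forming subunit, had 10.39 and 10.40 in siRRM1, 10.52 and 10.40 in siRRM2 and 10.48 and 10.39 in scramble, with overlapping groups, and SEC61B differed by -0.10 in siRRM1 and -0.05 in siRRM2. SPCS1, a signal peptidase subunit, had 13.29 and 13.29 in siRRM1, 13.41 and 13.35 in siRRM2 and 13.32 and 13.32 in scramble, and SPCS2 differed by -0.12 to 0.03 in siRRM1 and -0.04 to -0.01 in siRRM2. SRPRA, the receptor for the signal recognition particle, had both siRRM2 arrays above scramble in its 2 probe sets, by 0.20 and 0.40 (adjusted p = 0.390 and 0.346), while siRRM1 overlapped scramble (-0.03 and 0.11). Of the 16 translocon probe sets, 9 had both siRRM1 arrays below both scramble arrays and 0 above both (31.4% and 26.0% of all probe sets did), and the median log2 difference was -0.17. For siRRM2 these numbers were 8 and 3 (29.0% and 25.8% of all), with a median of -0.07.

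The COPII coat held the largest difference among the members. SEC24D had log2 signals of 8.77 and 8.50 in siRRM1, 8.85 and 8.84 in siRRM2 and 9.63 and 9.39 in scramble. All 4 knockdown arrays lay below both scramble arrays, and siRRM1 lay below siRRM2. SEC24D dropped by 0.88 on the log2 scale in siRRM1, to 0.544 of scramble (SE 0.13, adjusted p = 0.00907), and differed by -0.66 in siRRM2 (SE 0.13, adjusted p = 0.0597), which missed the threshold. Leaving out 1 array at a time gave adjusted p of 0.0125 to 0.0511 in siRRM1, and the call was lost without scramble replicate 1. The dim SEC24D probe sets, outside the test, differed by -0.62 and -0.20 in siRRM1 and by -0.55 and -0.15 in siRRM2.

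SEC23B, which pairs with SEC24 proteins in the inner coat, had all 3 probe sets wholly below scramble in both knockdowns, and none was called in the reported test. For both knockdowns at once, no count over all probe sets was made. The 3 SEC23B probe sets differed by -0.36 to -0.25 in siRRM1 (adjusted p = 0.0597 to 0.197) and by -0.31 to -0.22 in siRRM2 (adjusted p = 0.163 to 0.297). Probe set 201582_at, with the lowest adjusted p of the 3, had 7.66 and 7.54 in siRRM1, 7.56 and 7.72 in siRRM2 and 7.97 and 7.94 in scramble. It was called lower in siRRM1 with the 60th percentile cutoff, centring each array on its median or the replicate block. Of the 4 coat probe sets, 4 had both siRRM1 arrays below both scramble arrays and 0 above both (31.4% and 26.0% of all probe sets did), and the median log2 difference was -0.31. For siRRM2 these numbers were 4 and 0 (29.0% and 25.8% of all), with a median of -0.29.

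**Figure D3:**
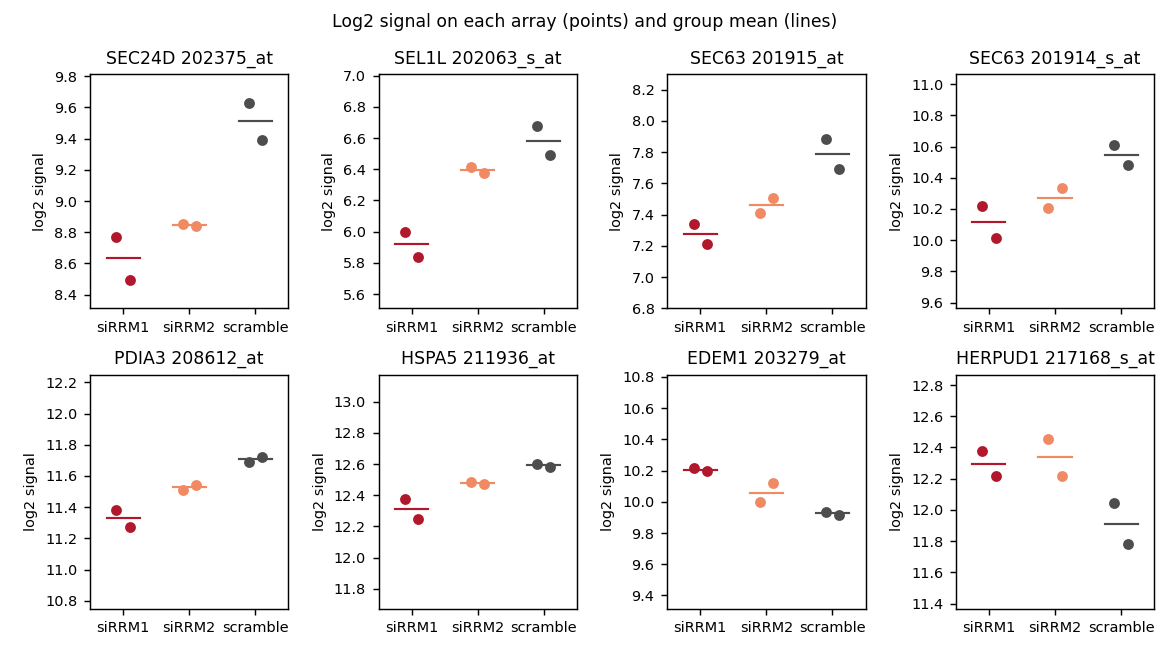
Log2 signal (vertical axis, spanning 1.5 in every panel) on each array (points) with the group mean (lines) for the 5 called probe sets and for HSPA5, EDEM1 and HERPUD1, by group (horizontal axis). In the 5 called panels all 4 knockdown points lie below both scramble points, and for EDEM1 and HERPUD1 all 4 lie above.

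**Figure D4:**
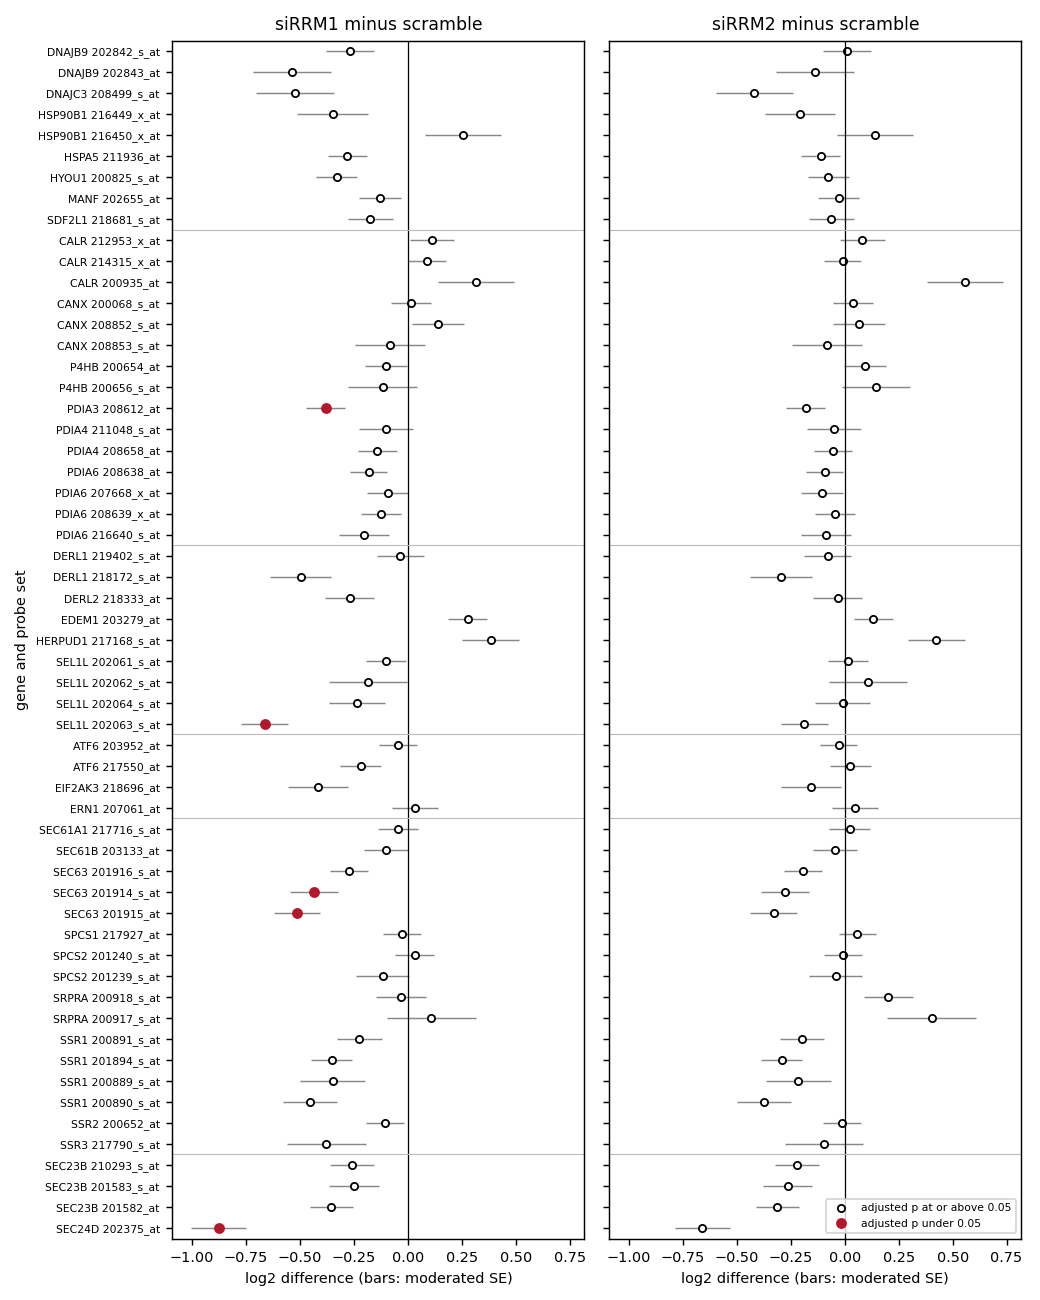
Log2 difference from scramble (horizontal axis) with moderated standard errors (bars) for the 57 tested probe sets (vertical axis, grouped by role), in siRRM1 (left) and siRRM2 (right). Filled points mark an adjusted p under 0.05, reached by 5 probe sets in siRRM1 and 0 in siRRM2.

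Between the knockdowns no member was called. Under limma 0 of 57 member probe sets differed between siRRM1 and siRRM2, against 0.0376% of all probe sets. At an unadjusted p under 0.05, 573 of all 13308 were higher in siRRM1 and 576 lower. Among the 57 members 4 passed that level, each lower in siRRM1. These were SEL1L 202063_s_at (-0.48, adjusted p = 0.243), HYOU1 (-0.25, adjusted p = 0.520), ATF6 217550_at (-0.24, adjusted p = 0.539) and DNAJB9 202842_s_at (-0.28, adjusted p = 0.561). Both siRRM1 arrays lay below both siRRM2 arrays in 26 probe sets (45.6%, against 21.2% of all) and above both in 2 (3.51%, against 17.3%). The median was -0.09, beside -0.02 over all probe sets tested, and it was -0.20 without siRRM1 replicate 1 and -0.04 without siRRM1 replicate 2.

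Other genes of these ER pathways were examined from a list of 76, of which 65 had a probe set and 63 were tested by 103 probe sets. In siRRM1, 6 of these fell (5.83%, against 5.75% of all probe sets) and 3 rose (2.91%, against 6.42%), so the share called lower was close to that of all probe sets. Unadjusted p was under 0.05 for 7 of the 103 above scramble and 28 below, against 1806 and 2175 of all 13308. The median log2 difference was -0.14, and both siRRM1 arrays lay below both scramble arrays in 51 (49.5%, against 31.4%) and above both in 9 (8.74%, against 26.0%). In siRRM2, 1 rose and 0 fell (limma, 1.32% of all probe sets called in either direction). The median log2 difference in siRRM2 was -0.065. Both siRRM2 arrays lay below both scramble arrays in 49 (47.6%, against 29.0%) and above both in 12 (11.7%, against 25.8%). At an unadjusted p under 0.05, 4 of the 103 lay above scramble and 13 below, against 1346 and 1155 of all 13308. Of the COPII genes, SEC23A (212887_at), the close relative of SEC23B, had 8.39 and 8.17 in siRRM1, 8.51 and 8.53 in siRRM2 and 8.86 and 8.88 in scramble. It dropped by 0.59 in siRRM1 (SE 0.10, adjusted p = 0.0157), with all 4 knockdown arrays below scramble. The other SEC23A probe set, 204344_s_at, differed by -0.565 in siRRM1 and was not called (adjusted p = 0.167). SEC13, a subunit of the outer coat, dropped by 0.55 (SE 0.11, adjusted p = 0.0255). Coat genes that were not called, named after their values were seen, gave -0.41 to -0.21 for SAR1A, SEC24A and SEC24B, and -0.08 to 0.09 for SAR1B, SEC31A and SEC24C.

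The other falls in siRRM1 were in HSPA13, an HSP70-like ATPase of microsomes (-0.48 and -0.81 by its 2 probe sets, adjusted p = 0.0254 and 0.0455), FKBP14, a prolyl isomerase of the ER (-0.67, adjusted p = 0.0150), and ERO1A, the oxidase that recharges disulphide isomerases (-0.53, adjusted p = 0.0367). DDIT3 (CHOP), a transcription factor downstream of EIF2AK3 and other stress kinases, had 8.08 and 8.69 in siRRM1, 7.15 and 7.46 in siRRM2 and 6.90 and 7.17 in scramble. It rose by 1.35 in siRRM1 (SE 0.21, adjusted p = 0.0115) and differed by 0.27 in siRRM2 (adjusted p = 0.536). WFS1, an ER membrane protein, rose by 0.49 in siRRM1 (adjusted p = 0.0223) and differed by 0.43 in siRRM2 (adjusted p = 0.0839). ATP2A3 (213036_x_at), a calcium pump of the ER, rose by 0.52 in siRRM1 (adjusted p = 0.0181) and by 0.63 in siRRM2 (adjusted p = 0.0365). The name of that probe set marks possible cross-hybridization. The other ATP2A3 probe set tested, 207522_s_at, gave 0.64 and 0.85 and was not called (adjusted p = 0.0592 and 0.0729). The dim ATP2A3 probe sets, outside the test, differed by 0.16 and -0.10 in siRRM1 and by 0.20 and 0.27 in siRRM2. Of the 9 calls in siRRM1, the count became 1 without siRRM1 replicate 2 or scramble replicate 2, 3 without scramble replicate 1 and 22 without siRRM1 replicate 1.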

How the data were processed

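RNA of 6 samples was measured on Affymetrix-type arrays, per the labels. The authors deposited 1 log2 value per probe set and array. The log2 scale is read from the range of the values, and summary and normalization steps are not given in these sources. Array medians were 6.11 to 6.16, and nothing was rescaled. With 2 arrays per group, precision is low.

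Names came from the platform annotation (19070 probe sets with 1 symbol, 1043 with several, 2164 with none), and only probe sets with 1 symbol were named. Matching to RefSeq genes changed 0 symbols. Without control probe sets, those with a mean at or above the 40th percentile entered limma 3.58.1 (R 4.3.3, lmFit then eBayes), fitted over the 6 arrays together with 3 residual and 4.29 prior degrees of freedom. A call is a two-sided p under 0.05 after Benjamini-Hochberg adjustment over 13308 probe sets. SE is the moderated standard error. The script was tested on simulated data. The members and gene lists were chosen with earlier results of these data known. Every member is named, and of the other ER genes those that were called, with XBP1 and the uncalled coat genes named beside them. A further control transcript for RNA ends is not reported here. Alternatives changed the filter, scaling, variance model, arrays and replicate block.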

Additional observations from a re-analysis of the deposited data

Results flagged for a closer look

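SPCS1 (217927_at) had log2 signals of 13.29 and 13.29 in siRRM1, 13.41 and 13.35 in siRRM2 and 13.32 and 13.32 in scramble, so both siRRM1 arrays lay below and both siRRM2 arrays above the scramble arrays. The siRRM1 minus siRRM2 difference was -0.085 (limma adjusted p = 0.844), which did not pass the threshold.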

How the results depend on the processing

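For siRRM1 against scramble, the 5 member calls became 3 with 1 probe set per gene (SEC24D, PDIA3 and HYOU1), 9 with the cutoff at the 60th percentile, 10 with each array centred on its median, 13 with a variance trend (HERPUD1 higher, the others lower), 3 with array weights and 2 with the 4 arrays of those groups. Quantile normalization also gave 5, of which EDEM1 was higher. Those 4 arrays gave 923 calls over all probe sets, against 1619 in the reported test, and the variance trend gave 16 calls among the other ER genes, against 9. For siRRM2 against scramble, SEC24D was the 1 member called with 1 probe set per gene, the 60th percentile, the variance trend and array weights. All probe sets gave 347 calls with the trend and 428 with weights, against 176, and the other ER genes gave 3 with the trend, 2 with weights and 0 with 4 arrays, against 1. For siRRM1 against siRRM2, all probe sets gave 13 calls with 1 probe set per gene, 3 at the 60th percentile and 16 with the trend, against 5. No member was called there under any alternative. With the replicate number as a block, siRRM1 gave 15 member calls (HERPUD1 higher, the others lower), 2746 over all probe sets and 21 among other ER genes, siRRM2 gave 2 (SEC24D and HERPUD1), 712 and 3, and siRRM1 against siRRM2 gave 101 over all probe sets and 1 among other ER genes. Deviations of same-numbered arrays correlated at 0.35, 0.36 and 0.21, and with 2 numbers per group and no label tying them, a pairing is not established. Leaving out 1 array at a time, where a lone array is assumed to vary like the others, gave 0 to 10 member calls, 386 to 2003 over all probe sets, 1 to 22 among other ER genes and a member median of -0.263 to -0.086 for siRRM1. For siRRM2 it gave 0 member calls, 6 to 135 over all probe sets and 0 to 1 among other ER genes. For siRRM1 against siRRM2 it gave 2 to 5 over all probe sets and a member median of -0.203 to -0.035. The causes were not tested. No median and no difference of the 5 called probe sets changed sign under the alternatives run.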
